A study of Mus musculus with 12 samples.

Results

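The guanylate-binding protein genes were followed in tumors that carried, or lacked, a blue-light controlled module for interferon gamma (IFNG). The members were taken by symbol from the count tables and were Gbp2, Gbp3, Gbp4, Gbp5, Gbp6, Gbp7, Gbp8, Gbp9 and Gbp10, that is 9 of the 32288 counted genes. All 9 passed the filter on low counts, which asked for 10 or more counts summed over the 12 libraries. Tumors grew in the backs of DBA/2 mice, aged between 8 and 10 weeks, after injection of cells of P815, a mouse mastocytoma line. P815-IFNG tumors came from 1 single-cell clone in which the light-sensing activator GAVPO, driven by the EF-1α promoter, controls a cassette of Ifng, Cxcl10 and a luciferase behind a UAS promoter. P815-M tumors came from a single-cell clone without GAVPO and without the cytokine cassette, and both clones carried the reporter mRuby-Fluc. From 7 days after implantation the mice of the light groups received blue light at 2.5 mW cm-2 for 12 h per day over 6 days. The mice of the dark groups received none. The paper states that light-group mice were kept singly in the cages of the device, and does not state how dark-group mice were housed. Any difference in housing cannot be told apart from light. Each of the 4 groups had 3 mice and 1 library per mouse. Each line was 1 clone, so a difference between P815-IFNG and P815-M tumors cannot be told apart from a difference between the clones.

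Guanylate-binding proteins are large GTPases that cells make in response to interferons, above all IFNG. They assemble on the membranes of vacuoles and on bacteria inside the cell, open them, and help to activate inflammasomes and the caspase that senses bacterial lipopolysaccharide. Promoters of IFNG-induced genes often hold gamma-activated sequences (GAS) and interferon-stimulated response elements (ISRE), and IRF1 is a factor that binds ISRE.

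The libraries differed in depth before any comparison. In 10 of them the total lay between 2211234 and 2946792 counts, whereas replicate 3 of P815-IFNG light held 41473500 and replicate 3 of P815-IFNG dark 42338096. These 2 deep libraries also stood apart in mt-Nd6, the mitochondrial gene on the strand opposite to the others, with 3.56% and 3.85% of the mitochondrial counts against 29.0% to 47.9% in the other 10. Which strand the counts of each kind of library reflect could not be settled from the counts and was not tested. CPM of the deep and the other libraries may therefore not be comparable. A count of 3, taken as the detection floor, was worth 1.02 to 1.36 CPM (counts scaled to equal library totals) in the 10 libraries and 0.0709 to 0.0723 CPM in the deep ones, which covers counting error only. The knock-in sequence GAVPO_bla had between 1040 and 79894 counts in the P815-IFNG libraries and between 0 and 4 in the P815-M libraries, as the labels require. The summed level of 10 mast cell and P815 markers was between 1737 and 2662 CPM in the 10 libraries and was 8376 and 10662 CPM in the deep dark and the deep light library. Values without the deep libraries are given beside those from all 12 where results rest on them.

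The members lie in 2 clusters. On chromosome 3 of GRCm38 (also called mm10), Gbp5 (142496934 to 142522344), Gbp7 (142530336 to 142550151), Gbp3 (142560016 to 142573213) and Gbp2 (142620663 to 142638008) follow each other on the plus strand. On chromosome 5, Gbp8 (105012513 to 105053609), Gbp9 (105076464 to 105110357), Gbp4 (105115767 to 105139586), Gbp10 (105215699 to 105239533) and Gbp6 (105270702 to 105295871) lie on the minus strand. In the longest transcript of each member the only exon that overlapped a gene of the opposite strand was in Gbp2, where the microRNA gene Mir6381 lies.

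RefSeq promoter windows were at hand for the 4 members of the chromosome 3 cluster. They are shown because an ISRE core was found in the window of each of them. Each line gives the 180 bases before a transcription start, 5′ to 3′ on the plus strand of GRCm38.p6, with ISRE cores and GAS cores in capitals.
Gbp2, chr3:142620483-142620662: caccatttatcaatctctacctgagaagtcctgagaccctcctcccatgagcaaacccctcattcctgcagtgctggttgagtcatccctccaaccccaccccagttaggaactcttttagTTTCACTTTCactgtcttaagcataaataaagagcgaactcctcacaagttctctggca
Gbp3, chr3:142559864-142560043: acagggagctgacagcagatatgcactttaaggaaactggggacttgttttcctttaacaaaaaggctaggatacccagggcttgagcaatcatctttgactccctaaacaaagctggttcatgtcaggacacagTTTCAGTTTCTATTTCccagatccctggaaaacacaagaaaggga
Gbp5, chr3:142496754-142496933: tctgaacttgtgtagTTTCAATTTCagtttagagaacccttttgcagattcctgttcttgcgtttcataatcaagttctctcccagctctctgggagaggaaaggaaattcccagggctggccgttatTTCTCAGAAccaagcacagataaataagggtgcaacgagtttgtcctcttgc
Gbp7, chr3:142530156-142530335: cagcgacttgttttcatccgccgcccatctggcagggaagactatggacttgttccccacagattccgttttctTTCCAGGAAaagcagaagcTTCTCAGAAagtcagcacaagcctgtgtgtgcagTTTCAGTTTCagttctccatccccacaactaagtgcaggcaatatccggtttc

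The ISRE core was searched as GAAANNGAAA and the GAS core as TTCNNNGAA, on both strands. All ISRE cores shown lie on the minus strand and read TTTCNNTTTC in the lines above. In windows of 250 bases before and 50 bases after the start, the ISRE core was present in 1131 of 32851 RefSeq promoter windows (3.44%) and the GAS core in 2726 (8.30%). The ISRE core began 59 bases before the start in Gbp2 (position -59), at -53 in Gbp7 and at -165 in Gbp5. In Gbp3 there were 2 overlapping ISRE cores, beginning at -45 and -39, and a window at another annotated start of Gbp3 held neither core. Gbp5 and Gbp7 each held 2 GAS cores, and 0.454% of all windows held a GAS core together with an ISRE core. In Gbp5 one of these GAS cores, at -245, lies outside the bases shown. These matches are letters in a window and were not tested as binding sites.

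The question behind the first comparison was whether the members stood higher in P815-IFNG tumors under light, which is meant to switch on the IFNG cassette, than in the dark. All 9 members had a higher fitted level in the light, with log2 fold changes between 1.40 and 1.88 and a median of 1.53, but none passed the test. By the quasi-likelihood test of edgeR, 0 of 9 members were called (Benjamini-Hochberg adjusted p up to 0.05 and a log2 fold change of 1 or more in size), where 0.0% of all 18804 tested genes were called. At an unadjusted p under 0.05 that test held 409 genes and 0 members, and DESeq2 called 4 genes and 0 members. Without the 2 deep libraries the median was 1.35, and 7 of 9 members and 1810 of 16944 genes had an unadjusted p under 0.05, still with 0 members called. With a batch term for the deep libraries all 9 members and 1568 of 18804 genes did, again with 0 members called. The median log2 fold change over all genes was -0.02, and 3.79% of all genes had a larger log2 fold change than the median member. Leaving out replicate 1 of the light group lowered the median of the members to 0.63, and leaving out the deep dark library lowered it to 0.90, while leaving out replicate 1 of the dark group raised it to 2.90. Since these were bulk tumors, fewer cells of a type that makes a transcript and less of that transcript per cell cannot be told apart.

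**Figure D1:**
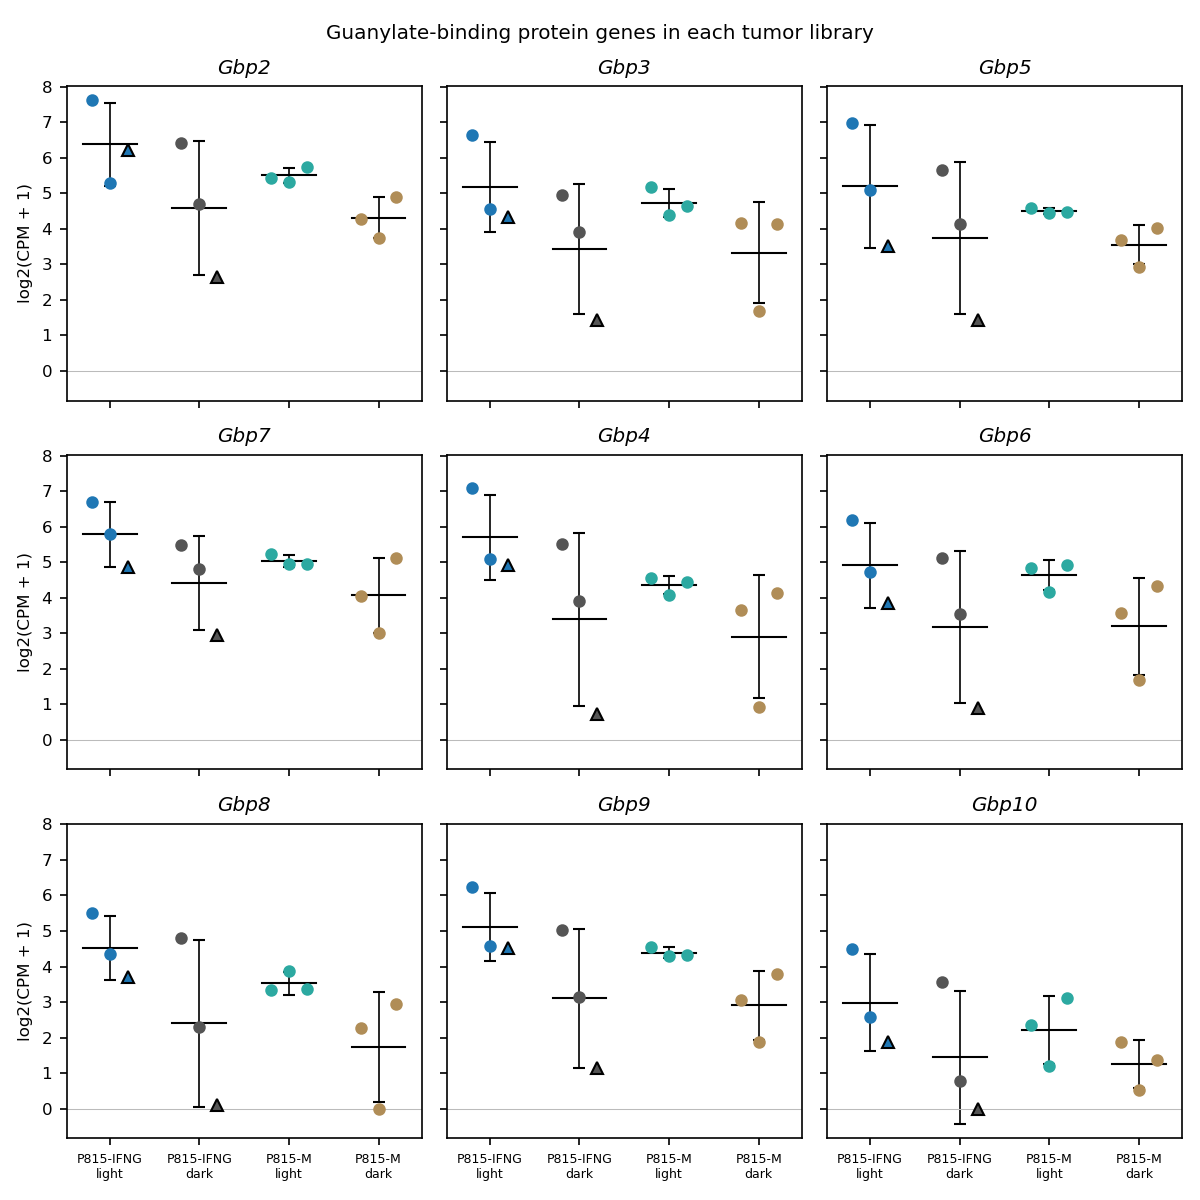
Level of each member on the scale log2(CPM + 1) (y axis) in the 4 groups (x axis), with 1 point per library in the order of the replicate numbers. Triangles with a black edge are the 2 deep libraries, and the bar and whiskers give the mean and SD over 3 libraries. For every member the deep triangle is the lowest point of P815-IFNG dark, and replicate 1 is the highest point of both P815-IFNG groups.

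Gbp2, a prenylated member that is recruited to pathogen vacuoles, was the most abundant per length. Its levels in replicates 1, 2 and 3 were 195.2, 38.2 and 73.8 CPM in P815-IFNG light (102 ± 82.3, SD, n = 3) and 83.5, 24.7 and 5.24 CPM in P815-IFNG dark (37.8 ± 40.7). The groups overlapped, with replicate 1 of the dark group above replicates 2 and 3 of the light group. EdgeR put the log2 fold change at 1.57 with a standard error of 0.80 (adjusted p = 1.00), and at 1.26 (standard error 0.54) without the deep libraries. In P815-M tumors Gbp2 stood at 42.5, 39.1 and 52.7 CPM in the light and at 18.5, 12.4 and 28.9 CPM in the dark. Every light tumor there was above every dark tumor, and the log2 scale gave 1.21 (standard error 0.81).

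Gbp5, which is known to promote assembly of the NLRP3 inflammasome, stood at 125, 33.3 and 10.5 CPM in P815-IFNG light and at 49.2, 16.6 and 1.72 CPM in P815-IFNG dark. The deep light library was below the first 2 dark libraries, so the groups overlapped. On the log2 scale the fold change was 1.47 (standard error 0.99), or 1.42 (standard error 0.48) without the deep libraries. In P815-M tumors Gbp5 was the steadiest member in the light, at 23.1, 20.6 and 21.1 CPM (21.6 ± 1.29, SD, n = 3), against 12.0, 6.66 and 15.2 CPM in the dark. Those groups did not overlap.

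Gbp7, known for carrying autophagy and NADPH oxidase components to vacuoles, had 103, 54.0 and 28.3 CPM in P815-IFNG light and 44.1, 27.2 and 6.66 CPM in P815-IFNG dark. Replicate 1 of the dark group again lay above the deep light library. Its log2 fold change of 1.40 was the smallest of the 9 and had the smallest standard error (0.69), and without the deep libraries it was 1.29. In P815-M tumors the levels were 36.6, 29.7 and 29.9 CPM in the light and 15.4, 7.11 and 34.0 CPM in the dark. Here the groups overlapped through dark replicate 3, which stood above light replicates 2 and 3.

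Gbp3, the remaining member on chromosome 3, had 99.2, 22.5 and 19.3 CPM in P815-IFNG light and 30.2, 14.1 and 1.68 CPM in P815-IFNG dark. That is a log2 fold change of 1.77 (standard error 0.95), or of 1.60 without the deep libraries. Light replicates 2 and 3 both lay below dark replicate 1. In P815-M tumors Gbp3 had 34.8, 19.8 and 24.0 CPM in the light and 17.0, 2.22 and 16.4 CPM in the dark, and these groups did not overlap.

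On chromosome 5, Gbp4 had the largest log2 fold change of the 9 between P815-IFNG light and dark, 1.88 (standard error 1.14), or 1.66 without the deep libraries. Its levels were 134, 33.3 and 29.4 CPM in the light and 44.8, 14.1 and 0.661 CPM in the dark. In P815-M tumors they were 22.6, 15.9 and 20.7 CPM in the light and 11.6, 0.888 and 16.4 CPM in the dark. The value of 0.888 lies under the floor of 3 counts. Dark replicate 3 of P815-M lay just above light replicate 2, which is the only overlap between those groups.

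Gbp6 had 72.4, 25.2 and 13.3 CPM in P815-IFNG light and 33.6, 10.6 and 0.850 CPM in P815-IFNG dark, a log2 fold change of 1.46 (standard error 1.04), or 1.30 without the deep libraries. In P815-M tumors it had 27.6, 16.8 and 29.1 CPM in the light and 10.8, 2.22 and 19.1 CPM in the dark. In both lines the groups overlapped. Gbp10, its neighbour and nearest copy, was the least abundant member, with 21.6, 4.95 and 2.701 CPM in P815-IFNG light and 10.9, 0.706 and 0 CPM in P815-IFNG dark. In P815-M tumors Gbp10 had 4.07, 1.29 and 7.59 CPM in the light and 2.699, 0.444 and 1.56 CPM in the dark. The value of 0.706 and that of 0.444 lie under the floor of 3 counts, so the log2 fold change of Gbp10, 1.53 with a standard error of 1.52 (1.35 without the deep libraries), rests on few reads.

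Gbp8 had 44.4, 19.3 and 12.1 CPM in P815-IFNG light and 27.1, 3.88 and 0.0709 CPM in P815-IFNG dark, with 1.46 on the log2 scale (standard error 1.34), or 1.20 without the deep libraries. The groups overlapped at dark replicate 1. In P815-M tumors it had 9.04, 13.8 and 9.28 CPM in the light and 3.86, 0 and 6.64 CPM in the dark. All 3 light tumors of P815-M stood above all 3 dark ones, and Gbp8 had the largest log2 fold change of the 9 in that line, 1.67 (standard error 1.43). A count of 0 in P815-M dark replicate 2 allows up to 1.33 CPM. Gbp9 had 74.0, 22.9 and 22.0 CPM in P815-IFNG light and 31.9, 7.77 and 1.20 CPM in P815-IFNG dark, and the groups overlapped in the same way. On the log2 scale the gap was 1.70 (standard error 0.92), or 1.44 without the deep libraries. In P815-M tumors Gbp9 had 22.6, 18.5 and 19.0 CPM in the light and 7.33, 2.67 and 12.9 CPM in the dark, without overlap, and light exceeded dark by 1.45 on the log2 scale (standard error 0.94).

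In P815-IFNG tumors the libraries of the light group stood above all those of the dark group in 0 of 9 members, and in 0.67% of all tested genes. In exact permutation tests of log2(CPM + 1), two-sided, the p of single members in this comparison lay between 0.2 and 0.5, where 0.1 is the smallest that 3 against 3 allow. Within pairs of the same replicate number, light stood above dark for 9 of 9 members in each of the 3 pairs, which held for 8.21% of all tested genes. In these pairs the summed level was 869 against 355 CPM, 254 against 120 CPM and 211 against 18.1 CPM. Libraries 1 and 2 deviated together across numbers (r = 0.86 and 0.85) about as much as within them (0.88 and 0.85). The numbers thus set only the deep pair apart. Members also moved together, so they are not separate evidence. An exact permutation test of 3 pairs, two-sided, cannot go below p = 0.25, and edgeR with the replicate as a block called 0 of 9 members. The spread inside the groups was wide, and the highest library exceeded the lowest by a median factor of 5.10 over the members in P815-IFNG light and by 27.5 in P815-IFNG dark, there over the 8 members other than Gbp10, which had a count of 0. Replicate 1 was the highest of its group for 9 of 9 members in both. The deep library was the lowest for 9 of 9 members in the dark group and for 8 of 9 in the light group, the exception being Gbp2.

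The 2 deep libraries, 1 tumor of each P815-IFNG group, gave the widest gap between light and dark. Together the members held 8769 counts in the deep light library and 766 in the deep dark one, a ratio of CPM of 11.7 (95% exact binomial interval 10.9 to 12.6, counting error only). For Gbp7 the ratio was 4.25 (3.73 to 4.86), for Gbp2 14.1 (12.3 to 16.2) and for Gbp4 44.5 (30.6 to 67.2). Gbp8 had 502 counts against 3, a ratio of 171 with a counting interval from 58.1 to 831. Gbp10 had 112 counts against 0 and was 38.1-fold higher when the dark library is set to the floor of 3 counts, while the 95% exact binomial interval begins at 30.5. These ratios compare 2 tumors and not the conditions. In the other replicates of the same groups the summed level was 869 and 254 CPM in the light against 355 and 120 CPM in the dark.

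P815-M tumors lack the cassette, and the second comparison gives the members under light without it. All 9 members again had a higher fitted level in the light, with log2 fold changes between 0.83 and 1.67 and a median of 1.22, while the median of all genes was 0.01. None passed the test: edgeR called 0 of 9 members and 0.0% of all genes, with 510 genes and 0 members at an unadjusted p under 0.05, and DESeq2 called 1 gene and 0 members. Of all genes, 9.43% had a larger log2 fold change than the median member. For 5 of 9 members, Gbp2, Gbp3, Gbp5, Gbp8 and Gbp9, every light tumor stood above every dark tumor, against 9.58% of all genes tested. Each of these 5 had p = 0.1 in the exact permutation test, the smallest it can give here. The summed level of the 9 was 223, 176 and 213 CPM in the light and 99.1, 34.6 and 151 CPM in the dark, so the light tumors lay close together and the spread was in the dark group. Dark replicate 2 was the lowest of its group for 9 of 9 members, and without it the median log2 fold change was 0.80. Without the 2 deep libraries, which lie outside this comparison but share the fit, the median was 1.19, with 157 genes and 0 members called and 5 of 9 members at an unadjusted p under 0.05 (2365 of 16944 genes). In a fit of the 6 P815-M libraries alone 8 of 9 members were under that limit (2333 of 15722 genes).

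**Figure D2:**
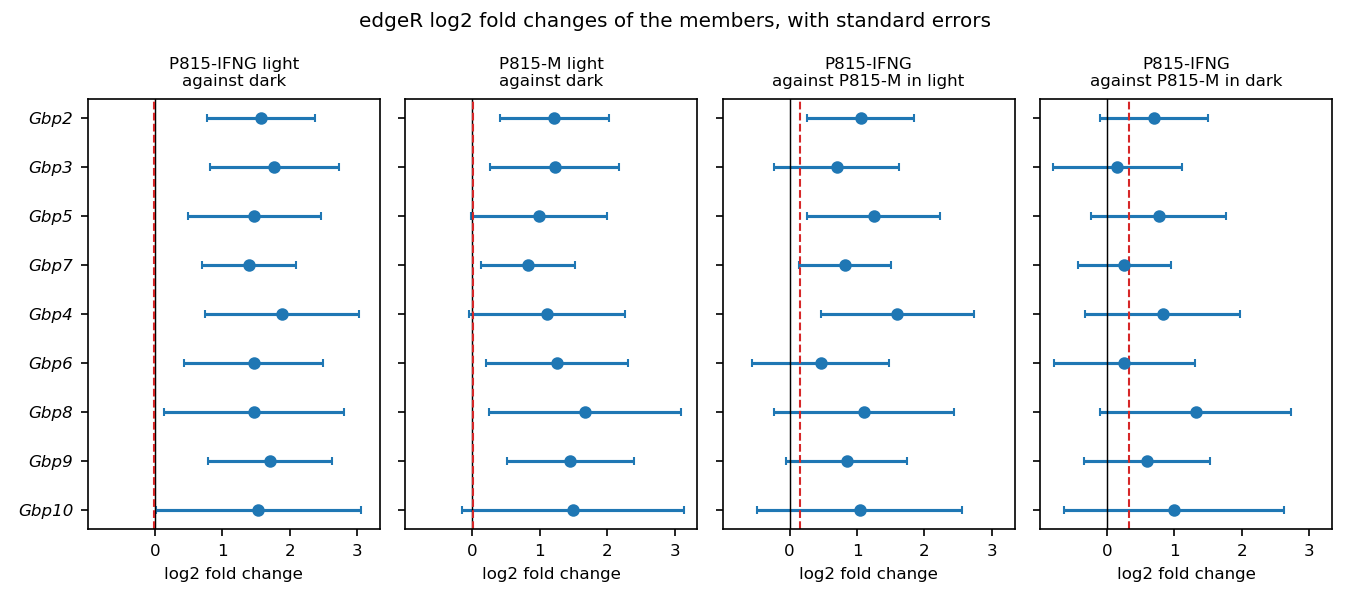
Log2 fold change of each member (x axis) with its standard error from edgeR, in 4 comparisons. The solid line marks 0 and the dashed line the median of all genes. All points lie right of 0, and in P815-IFNG against P815-M in the dark Gbp3, Gbp6 and Gbp7 lie left of the dashed line.

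The effect of light was then set against itself in the 2 lines, in 1 model. The log2 fold change under light was larger in P815-IFNG than in P815-M for 8 of 9 members, with differences between -0.21 (Gbp8) and 0.77 (Gbp4) and a median of 0.36. Standard errors of these differences ran from 0.97 for Gbp7 to 2.42 for Gbp10, wider than each difference itself. In edgeR 0 members and 0.0% of all genes were called, 313 genes and 0 members had an unadjusted p under 0.05, and DESeq2 called 4 genes and 0 members. Without the 2 deep libraries its median over the members was 0.09. Leaving out P815-IFNG light replicate 1 turned it to -0.64, with 0 of 9 members positive, and leaving out the deep dark library turned it to -0.17, leaving out P815-M dark replicate 3 brought it to 0.0036, and leaving out P815-IFNG dark replicate 1 raised it to 1.82.

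Between the lines in the light, the members stood higher in P815-IFNG than in P815-M by log2 fold changes between 0.46 and 1.60, with a median of 1.04. The median of all genes was itself 0.15, and 0.04 with the size factors of DESeq2, so that the median member stood 0.89 above the median gene. EdgeR called 0 of 9 members and 0.016% of all genes (3 genes), with 1276 genes and 0 members at an unadjusted p under 0.05, and DESeq2 called 41 genes and 0 members. Gbp4 was the single member for which every P815-IFNG tumor lay above every P815-M tumor, 1 of 9 against 11.7% of all genes. The lowest P815-IFNG tumor had 29.4 CPM of Gbp4 and the highest P815-M tumor 22.6 CPM. The other members overlapped. Replicate 1 of P815-IFNG light, with 869 CPM of the 9 together, stood far above the 176 to 223 CPM of P815-M light, while replicates 2 and 3 had 254 and 211 CPM. Without that replicate the median log2 fold change was 0.01, and 5 of 9 members were higher. Without the 2 deep libraries the median was 1.28, and 6 of 9 members had an unadjusted p under 0.05 (1744 of 16944 genes), with 0 called. With the batch term 9 of 9 did (2086 of 18804 genes).

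Between the lines in the dark, the median log2 fold change of the members was 0.70 (0.16 to 1.31), and that of all genes was 0.33, or 0.16 with the size factors of DESeq2. Of all genes, 32.5% had a larger log2 fold change than the median member, which stood 0.37 above the median gene. EdgeR called 0 of 9 members and 0.0106% of all genes (2 genes), with 1290 genes and 0 members at an unadjusted p under 0.05, and DESeq2 called 38 genes and 0 members. In 0 of 9 members did all P815-IFNG tumors lie above all P815-M tumors, against 17.6% of all genes. Without P815-IFNG dark replicate 1 the direction turned, to a median of -0.83 with 0 of 9 members higher, and without P815-M dark replicate 2 the median was 0.31. Without the 2 deep libraries the median was 1.21, and 4 of 9 members had an unadjusted p under 0.05 (3303 of 16944 genes), with 0 called.

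**Figure D3:**
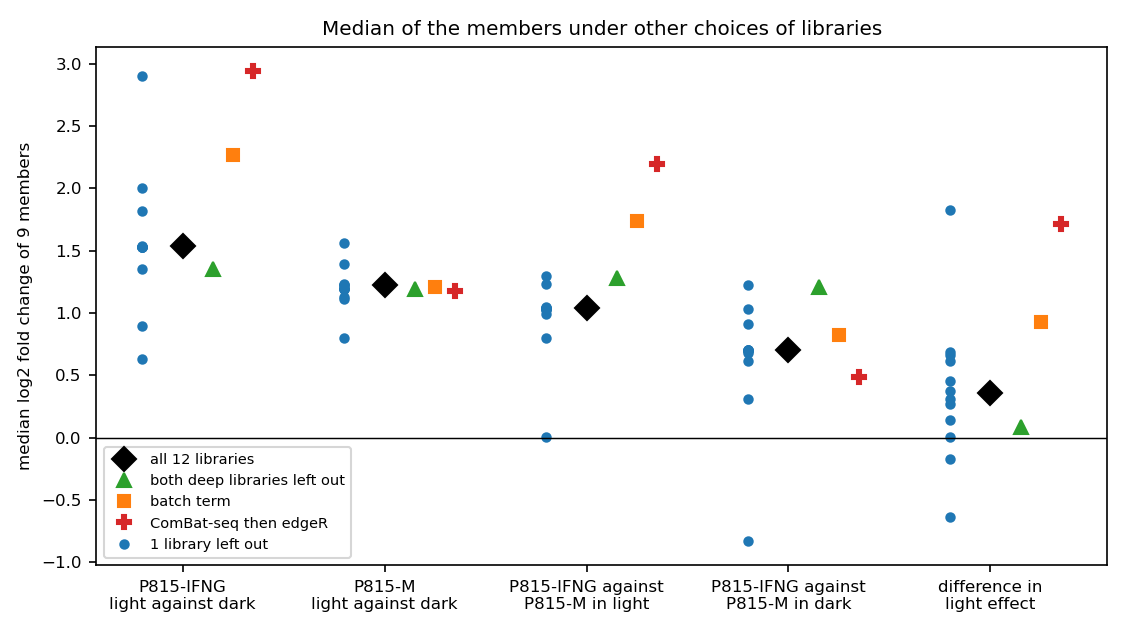
Median log2 fold change of the 9 members (y axis) in 5 comparisons (x axis) for all 12 libraries (diamond), with 1 library left out (12 circles), with both deep libraries left out (triangle), with a batch term (square) and after ComBat-seq (plus). For P815-M light against dark the points lie between 0.80 and 1.57, and for P815-IFNG light against dark between 0.63 and 2.94.

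Members were called when the deep libraries were treated as a batch. ComBat-seq adjusts the counts of both batches, here the deep and the other libraries, with the groups kept. After it, edgeR called 9 of 9 members higher in P815-IFNG light than dark (0.841% of all genes). It also called 9 of 9 higher in P815-IFNG than P815-M in the light (1.4%). DESeq2 after ComBat-seq called 8 of 9 in each, all but Gbp10 (0.434% and 0.921% of all genes). The light effect then differed between the lines for 1 of 9 members, Gbp4, by 3.05 on the log2 scale (adjusted p = 0.0123 from edgeR), where 0.214% of genes were called. ComBat-seq was given the groups, and the fits that followed it held no term for the batch. Adjusted p after ComBat-seq thus leave that step out of account and may be too small. With a batch term in place of ComBat-seq, 1 of 9 was called, Gbp5 in P815-IFNG against P815-M in the light (log2 fold change 1.96, adjusted p = 0.0436 from edgeR, 0.436% of genes). In a fit of the 6 P815-M libraries alone 1 of 9 was called, Gbp2 in the light against the dark (log2 fold change 1.18, adjusted p = 0.0253 from edgeR, 1.55% of genes).

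The counts that entered after ComBat-seq differed from the deposited ones by far in the deep light library. There Gbp2 went from 3062 to 12071 counts, Gbp4 from 1220 to 14862, Gbp8 from 502 to 14584 and Gbp10 from 112 to 3153. In the deep dark library Gbp2 went from 222 to 610, Gbp4 from 28 to 200 and Gbp8 from 3 to 43, and Gbp10 stayed at 0. Counts of the other libraries changed too. In P815-IFNG light Gbp4 went from 336 to 305 in replicate 1 and from 74 to 109 in replicate 2. In P815-IFNG dark it went from 132 to 70 in replicate 1 and from 40 to 28 in replicate 2. The deep batch held 1 tumor of each P815-IFNG group and no P815-M tumor.

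The order of the members was compared per length, as CPM per kilobase of each member's longest transcript. Gbp2 was the highest in 12 of 12 libraries, at 40.7 ± 32.7 CPM per kb (SD, n = 3) in the light and 15.03 ± 16.2 in the dark in P815-IFNG tumors. In P815-M tumors it stood at 17.8 ± 2.81 under light and 7.93 ± 3.31 without. Gbp10 was the lowest in 11 of 12, at 2.76 ± 2.93 CPM per kb in P815-IFNG light and 1.22 ± 0.895 in P815-M light. The exception was P815-M dark replicate 2, where Gbp8 had no count. In P815-IFNG light the order was Gbp2, Gbp5, Gbp3, Gbp8, Gbp4, Gbp6, Gbp7, Gbp9 and Gbp10, and 8 of 8 neighbours in it lay within 1 SD of each other, as did all neighbours of P815-IFNG dark. Among P815-M tumors in the light Gbp2 stood above Gbp3, Gbp7 above Gbp9 and Gbp4 above Gbp10 by more than 1 SD, and in P815-M dark Gbp2 above Gbp3 and Gbp9 above Gbp10 did.

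Near copies make some of these levels uncertain. Of the 100-base stretches in the longest transcript of Gbp6, 46.7% occurred in another gene's transcripts too, chiefly Gbp10, and for Gbp10 it was 33.2%, chiefly Gbp6. Reads that map to both are left out by the default counting of HTSeq. For Gbp7 the share was 10.2%, chiefly with Gm43802, for Gbp8 6.00% and for Gbp4 2.88%. For Gbp2 and Gbp5 it was 0.0%.

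The members moved together across tumors. Over the 10 libraries without the deep pair, the 36 pairs of members had Pearson correlations of log2(CPM + 1) between 0.77 (Gbp7 with Gbp10) and 0.97 (Gbp6 with Gbp9), with a median of 0.92. Pairs within a chromosome cluster had a median of 0.92 and pairs across the clusters one of 0.93. Among 10298 other genes with at least 10 counts in each of these libraries, the genes whose pattern was most like the mean of the members were Irf1 (r = 0.99), Samhd1 (0.98), Iigp1 (0.97), Tnfaip2, H2-Q4, Ifi47, Tyk2, Chkb and H2-T23 (each 0.96), and Oasl2 (0.95). The median gene had r = 0.13, and 0.437% had an r above 0.9. These values describe 10 libraries of 4 groups at similar depth, and carry no test.

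Irf1, the transcription factor that binds ISRE elements, had 229, 85.0 and 75.5 CPM in P815-IFNG light and 99.8, 44.1 and 25.5 CPM in P815-IFNG dark. In P815-M tumors it had 81.4, 70.5 and 69.6 CPM in the light and 42.0, 17.3 and 58.2 CPM in the dark. Replicate 1 was highest in both P815-IFNG groups and replicate 2 was lowest in P815-M dark, as for the members. Irf1 is shown here because it correlated most with the members over the libraries without the deep pair. Sharing their high and low tumors follows from that choice and is no separate evidence.

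Genes of the pathway were taken from lists. The upstream list holds the receptors, kinases and factors of the IFNG response, and 0 of its 13 genes were called in any of the 4 comparisons by edgeR. In P815-IFNG light against dark its median log2 fold change was 0.38 (0.43 without the deep libraries), with 9 of 13 higher, and 2 had an unadjusted p under 0.05. The largest log2 fold changes were those of the ligand Ifng (2.43, standard error 1.05) and of Irf1 (1.33, standard error 0.58), and the smallest was that of the receptor chain Ifngr2 (-0.23). Without the deep libraries they were 2.52 for Ifng, 1.28 for Irf1 and -0.56 for Ifngr2. Ifng transcripts stood at 14.8, 1.80 and 1.83 CPM in P815-IFNG light and at 2.04, 1.06 and 0.709 CPM in P815-IFNG dark. These were 37, 4 and 76 counts in the light and 6, 3 and 30 in the dark, so the fold change rests on few reads. Dark replicate 1 lay above light replicates 2 and 3. How reads shared by the cassette and the endogenous gene were assigned is not given in the sources used here. The tumor with the highest CPM of Ifng, P815-IFNG light replicate 1, also had the highest summed CPM of the members. In P815-M light against dark the median of the upstream list was 0.45, with 10 of 13 higher.

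Of 12 listed interferon-inducible GTPases outside the members, 8 were tested, and 0 were called in the 4 comparisons. All 8 were higher in P815-IFNG light than dark, with a median log2 fold change of 1.86 and 4 at an unadjusted p under 0.05. Without the deep libraries that median was 1.42. The largest were Tgtp1 (3.81, standard error 0.92), Gbp2b (2.26, standard error 1.26) and Tgtp2 (1.96, standard error 0.82), and the smallest was Ifi47 (1.11, standard error 0.49). Tgtp1 and Tgtp2 are near-identical copies, so the values of both are uncertain. Tgtp1 was also low in P815-IFNG dark, at 1.21 ± 0.940 CPM (SD, n = 3), so its value rests on few reads. Without the deep libraries the values were 2.93 for Tgtp1, 1.72 for Gbp2b, 1.20 for Tgtp2 and 1.10 for Ifi47. Gbp2b is the gene between Gbp3 and Gbp2 on chromosome 3. It had 3762 counts in the deep light library and 6 in the deep dark one. The ratio of CPM was 640 (95% exact binomial interval 294 to 1745, counting error only). That ratio compares single tumors and not the conditions. Replicates 1 and 2 of the P815-IFNG groups had 135 and 58.9 CPM of Gbp2b under light, against 54.0 and 12.0 CPM without it. In P815-M light against dark all 8 were higher too, with a median of 1.32.

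Genes whose proteins act with the members formed the third list, of inflammasome, autophagy and oxidase genes. All 16 were tested and 0 were called in the 4 comparisons. In P815-IFNG light against dark the median log2 fold change was 0.09 (-0.12 without the deep libraries), with 8 of 16 higher. The largest were the caspase gene Casp4 (0.93, standard error 0.48), the oxidase subunit Cybb (0.57, standard error 0.79) and the DNA sensor Aim2 (0.53, standard error 0.65), and the smallest was the cytokine gene Il1b (-1.77, standard error 1.12). Without the deep libraries Aim2 turned to -0.13, while Casp4 stood at 0.86 and Il1b at -2.41. In P815-M light against dark the median was 0.06, with 10 of 16 higher. Between the lines 15 of 16 were higher in P815-IFNG both in the light (median 0.67) and in the dark (median 0.80). Of all genes, 56.7% in the light and 64.2% in the dark were higher in P815-IFNG, with medians of 0.15 and 0.33. The medians of the 9 members were 1.04 and 0.70. Without the deep libraries the medians of the list between the lines were 0.42 in the light and 0.36 in the dark.

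**Figure D4:**
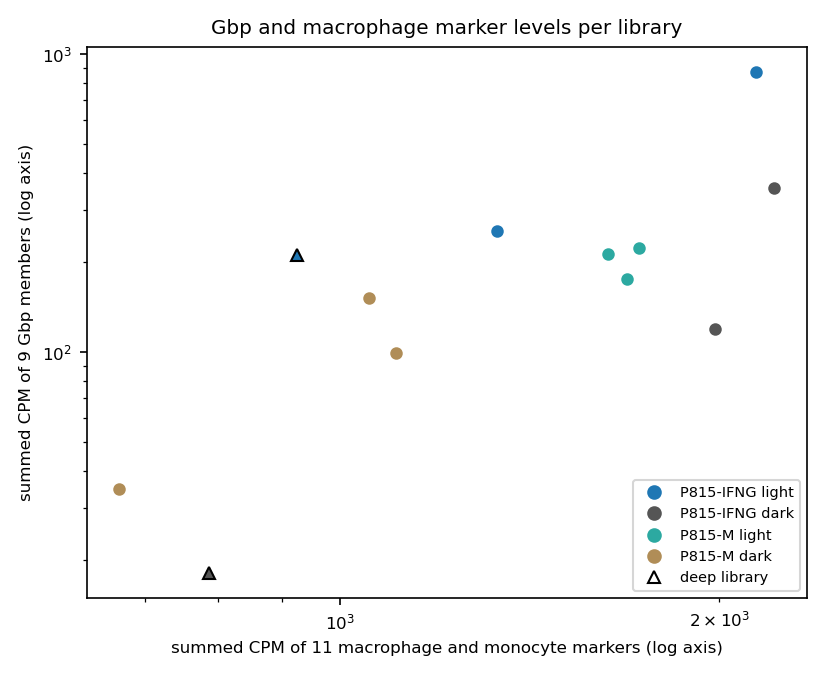
Summed level of the 9 members (y axis, log scale) against the summed level of 11 macrophage and monocyte markers (x axis, log scale), both in CPM, with 1 point per library, colours for the groups and triangles for the deep libraries. The library with the highest summed CPM of the members, P815-IFNG light replicate 1, has 2138 CPM of the markers, and P815-M dark replicate 2 has 669 CPM.

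Markers of other cells in the tumor moved with the members in part. All 11 macrophage and monocyte markers had counts in every library, and their summed level in P815-IFNG tumors was 2138, 1334 and 925 CPM under light and 2211, 1984 and 788 CPM without it. P815-M tumors had 1728, 1689 and 1632 CPM of them under light and 1107, 669 and 1056 CPM without it. In P815-M tumors the summed marker level did not overlap between light and dark, nor did the summed level of the 9 members. Every light tumor of P815-M stood above every dark one in 9.58% of all single genes. Neutrophil markers separated there too, with light lower (33.5 to 46.8 against 50.2 to 59.4 CPM). Endothelial markers separated in P815-IFNG tumors, also with light lower (91.6 to 97.6 against 111 to 194 CPM). In P815-IFNG tumors replicate 1 of the dark group and replicate 1 of the light group had similar marker levels, at 2211 and 2138 CPM, and 355 and 869 CPM of the members. Over the 10 libraries without the deep pair the summed marker level and the summed member level, on log2 scales, correlated at r = 0.80, and of the other 10 marker lists the highest was that of NK and cytotoxic cells (r = 0.52), the rest lying between -0.29 and 0.09. T cell markers had between 9.45 and 49.9 CPM in all 12 libraries. The part of these cells in the levels of the members was not tested.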

How the data were processed

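The authors sequenced poly(A) RNA of 12 tumors from a stranded kit, trimmed reads with fastp, aligned them with STAR 2.7.9a to mm10 with the knock-in sequences, and counted them with HTSeq 0.13.5 at default settings. The deposited values are raw counts per gene symbol (32288 rows per file, 38 symbols duplicated). The authors' later steps, removal of mitochondrial genes, ComBat-seq and DESeq2 1.32.0, are not in these values. The labels give 6 days of light.

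Groups came from the sample labels, and the mice are separate replicates. After removal of 13 mitochondrial rows, genes whose counts summed to 10 or more were tested with R 4.3.3 and edgeR 4.0.16 (TMM, 1 mean per group, quasi-likelihood test, Benjamini-Hochberg adjustment over all genes). CPM used all counts of a file. Exact permutation tests, two-sided, compared single members on log2(CPM + 1) (SciPy 1.17.1). The alternatives were DESeq2 1.42.0, its size factors, filterByExpr or no filter on low counts, mitochondrial genes retained, a fit of only the compared libraries, a replicate block, the 2 deep libraries left out, as a batch term or as the batch of ComBat-seq (sva 3.50.0), each library left out, and log2(CPM + 0.5). The methods do not name the batches of the authors' ComBat-seq. The test was checked on simulated counts with set fold changes.

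The replicate numbers come from the sample titles. Between P815-IFNG light and dark, deviations of same-numbered libraries from their group means correlated at 0.88, 0.85 and 0.97, so by the rule set (each over 0.1) the numbers pair these libraries. Libraries 1 and 2 also correlated across numbers (0.86 and 0.85), since the number 3 marks the deep library in both groups. In the other comparisons at least 1 pair was under 0.1. The block changed no call of a member. The counts within pairs were added after the values were seen.

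Members and lists were chosen with earlier results of these data known. The named genes are the 9 members, for each of 3 lists (other interferon-inducible GTPases, upstream factors, genes acting with the members) the called genes or else the 3 largest and the smallest log2 fold change in P815-IFNG light against dark, and the 10 genes most like the mean profile of the members. A gene of the upstream list that this rule names is not reported here. Positions, lengths and shared 50-base and 100-base stretches came from RefSeq of GRCm38.p6 and GENCODE M21 transcripts, and promoters from RefSeq, by symbol.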

Additional observations from a re-analysis of the deposited data

How the results depend on the processing

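The number of called members was 0 in every comparison under each alternative other than those given here. After ComBat-seq with edgeR it was 9 for P815-IFNG light against dark, 9 for the lines in light and 1 for the difference in the light effect, and with DESeq2 it was 8 and 8 for the first 2. With the batch term it was 1 (lines in light), and with only the libraries compared 1 (P815-M).

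All genes called, in the order light effect in P815-IFNG, light effect in P815-M, lines in light, lines in dark and difference, were 4, 1, 41, 38 and 4 with DESeq2, 1, 157, 39, 371 and 2 without the deep libraries, 2, 194, 82, 290 and 3 with the batch term, 157, 257, 262, 570 and 40 after ComBat-seq with edgeR, and 81, 215, 172, 444 and 8 after it with DESeq2. With only the libraries compared they were 244 for P815-M and 0 and 0 between the lines. In the dark between the lines they were 4 with DESeq2 size factors, 4 with filterByExpr and 7 with the replicate block. Leaving out 1 library gave 1 to 4 genes between the lines in light and 1 to 6 in dark. The cause was not tested.

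After ComBat-seq the median of the members was 2.94 (edgeR) and 2.83 (DESeq2) for P815-IFNG light against dark and 1.72 (edgeR) for the difference. With 1 library left out the ranges were 0.63 (without P815-IFNG light replicate 1) to 2.90 (without P815-IFNG dark replicate 1) for P815-IFNG light against dark, 0.80 to 1.57 for P815-M light against dark, 0.01 to 1.29 between the lines in light, -0.83 to 1.23 in dark and -0.64 to 1.82 for the difference. In those fits single members ran from -0.49 to 2.00 between the lines in light, from -3.68 to 2.16 in dark and from -1.34 to 4.73 for the difference. In both light against dark comparisons every member stayed positive under every alternative. With 1 library left out, single members ran from 0.10 to 6.20 in P815-IFNG and from 0.47 to 2.52 in P815-M. With the replicate block, P815-IFNG against P815-M in dark turned for Gbp3 (-0.14), Gbp5 (-0.0016) and Gbp6 (-0.19), and after ComBat-seq with edgeR for Gbp10 (-0.69). For the difference, Gbp10 turned with DESeq2 (-0.0047) and without the deep libraries (-0.088), and Gbp8 with the replicate block (0.28), the batch term (0.93), ComBat-seq with edgeR (3.87) and with DESeq2 (3.30). On the log2(CPM + 1) scale the difference of Gbp6 between the lines in dark turned without the deep libraries (1.13).

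The depth of 10 libraries sets a floor of over 1 CPM. P815-M dark replicate 2 lay under it for Gbp4, Gbp8 and Gbp10, and P815-IFNG dark replicate 2 for Gbp10. In P815-M light replicate 2 Gbp10 was at the floor. The 2 deep libraries are confined to P815-IFNG. Each line is 1 clone.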
